A study of Mus musculus with 4 samples.

Results

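Glycolysis splits glucose into pyruvate in the cytosol, and lactate dehydrogenase then turns pyruvate into lactate. The enzymes considered here are those encoded by *Hk1*, *Hk2*, *Gpi1*, *Pfkl*, *Pfkm*, *Aldoa*, *Pgk1*, *Eno3*, *Pkm* and *Ldha*, 10 genes in all. A probe set was included when the platform annotation paired it with exactly 1 of these genes. This gave 13 probe sets of 9 genes, out of 21044 probe sets of 19452 genes that were tested. No probe set was paired with *Gpi1*, which encodes glucose-6-phosphate isomerase, and this gene was not analysed here.

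Glycolysis begins with the phosphorylation of glucose by hexokinase, is committed at phosphofructokinase, and yields ATP at phosphoglycerate kinase and pyruvate kinase. Proliferating cells rely heavily on the pathway, and muscle fibers use it for rapid contraction, with isoenzymes such as muscle phosphofructokinase and beta-enolase that are characteristic of muscle. CUGBP1, the product of *Celf1*, is an RNA-binding protein that recognizes GU-rich sequence, commonly in 3′UTRs, and favors deadenylation and decay of the mRNAs it binds.

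The study immunoprecipitated RNA and protein complexes from cytoplasmic lysates of proliferating C2C12 (LKO-1) cells and hybridized the recovered RNA to Affymetrix Mouse Gene 1.0 ST arrays (RIP-Chip). The CUGBP1 IP group used the monoclonal antibody 3B1 and has 2 arrays, and the negative control used normal IgG (control IgG) and also has 2 arrays. C2C12 is a mouse myoblast line, and LKO-1 is a stable derivative that carries an empty lentiviral vector and is kept in puromycin, below the cell density at which differentiation starts. Both groups came from these cells, so all 4 arrays share the vector and the drug. The question was which mRNAs come down with CUGBP1 in myoblasts. The input RNA was not analysed here, so a transcript that was abundant in the lysate and a transcript of which a large share was brought down cannot be told apart, and neither can fewer cells of a kind and less RNA per cell.

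Each value is a linear intensity relative to the 5th percentile of its own array, so that an undetected transcript reads about 1 and dim probe sets have ratios close to 1. The upper end of background was set as the 95th percentile of 1198 olfactory and vomeronasal receptor probe sets, which was 1.23 and 1.29 for CUGBP1 IP, and 1.09 and 1.16 for control IgG. By that limit, the share of tested probe sets above background was 58.3% and 63.0% in CUGBP1 IP arrays, against 39.6% and 57.2% in control IgG. The arrays therefore differed in how far their bright end reached, and the 95th percentile of all tested probe sets was 6.90 and 9.44 in CUGBP1 IP arrays, against 1.94 and 4.34 in control IgG. Of 10 myoblast markers, 8 were above background on all 4 arrays and *Mstn* was above it on none. Their summed intensity was 133.15 and 167.83 in CUGBP1 IP arrays, against 45.64 and 118.48 in control IgG, with *Vim* as the largest part, and the other 9 summed to 55.26 and 53.68 in CUGBP1 IP arrays, against 13.50 and 20.43 in control IgG. Among these, *Myod1* read 18.80 and 23.21 in CUGBP1 IP arrays, against 1.77 and 3.30 in control IgG. *Myog* read 12.17 and 6.35 in CUGBP1 IP arrays, against 1.19 and 1.31 in control IgG. The study names both among its CUGBP1-associated transcripts. limma called 1 of the 10 markers (*Myog*) higher. Of 17 measured markers of other cell types, none exceeded an intensity of 1.65 and only *Krt8* was above background on all arrays. Their summed intensity was 19.98 and 21.43 in CUGBP1 IP arrays, against 17.75 and 19.10 in control IgG.

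The glycolytic mRNAs differed in their ratios, though no test compared them with each other. As deposited, *Ldha* was far ahead of the others, with a signal-to-negative ratio of 5.76 (mean CUGBP1 IP intensity over mean control IgG intensity). It was the single probe set of 13 in the top 5% of ratios. *Aldoa*, the aldolase of the pathway, followed at 2.47, just under the limit of 2.57 for the top 5.0% of all tested probe sets. The *Pgk1* and *Pkm* probe sets and 1 *Hk1* probe set lay between 1.68 and 2.20, and *Eno3*, *Pfkm*, *Hk2*, *Pfkl* and the other *Hk1* probe set between 1.21 and 1.61. The median of the 13 ratios was 2.01 (1.61 with 1 probe set per gene), against 1.22 over all tested probe sets and 1.61 over the 7727 that were above background on all arrays. After subtraction of the receptor median from each array, the median of the 13 was 2.16, against 2.94 over all tested probe sets. *Hk1* 10369541 then had the highest ratio of the 13, 7.84, ahead of *Ldha* at 6.61. With 1 probe set per gene the brightest was taken, so *Hk1* entered through 10414661 at 1.21 rather than 2.20, which lowered that median. Whether 10414661 detects *Hk1* was not tested.

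**Figure D1:**
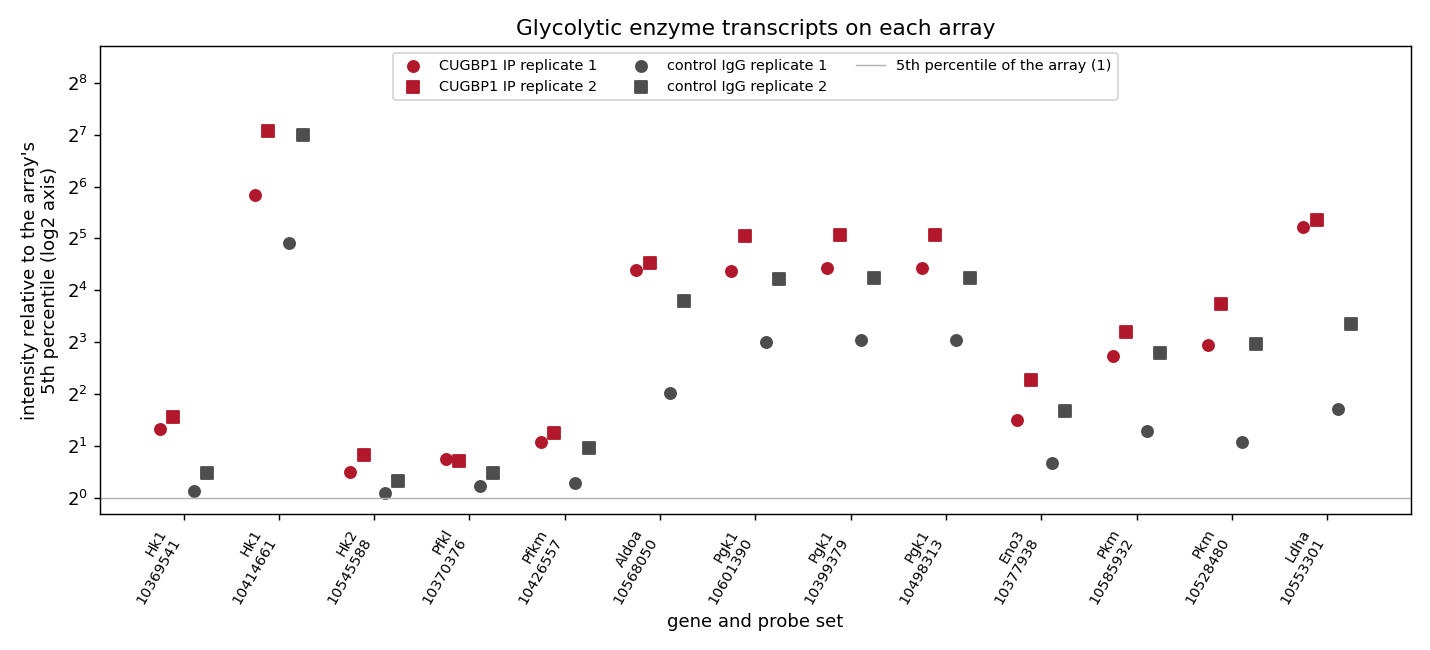
Intensity of each of the 13 probe sets relative to the 5th percentile of its array (log2 axis), with CUGBP1 IP replicates in red and control IgG replicates in gray. *Ldha* read 37.20 and 40.71 in CUGBP1 IP arrays, against 3.28 and 10.25 in control IgG, while the ranges of the groups overlap for *Hk1* 10414661, *Eno3* and both *Pkm* probe sets.

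By limma's moderated test on log2 values, with Benjamini-Hochberg adjustment over all tested probe sets and a threshold of 0.05, 1 of the 13 glycolytic probe sets was called higher in the CUGBP1 IP (7.69%) and 0 were called lower. Over all tested probe sets the same limma fit called 1.95% higher and 0.138% lower. At an unadjusted p under 0.05 there were 3 (23.1%), namely *Hk1* 10369541, *Hk2* and *Ldha*, all with positive differences, against 28.6% of all tested probe sets that were higher at that level. Both CUGBP1 IP arrays read above both control IgG arrays for 9 of the 13 probe sets (69.2%), against 66.3% of all tested probe sets. The median log2 difference, CUGBP1 IP minus control IgG, was 1.09 over the 13 probe sets (0.72 with 1 probe set per gene), against 0.29 over all tested probe sets and 0.73 over those above background on all arrays. The sign of this median depends on how the arrays are scaled, since it was -0.23 after quantile normalization (all tested probe sets -0.02) and -0.38 with arrays scaled to their 95th percentiles (all tested probe sets -1.19). In the value of 0.72, *Hk1* entered through 10414661 at 0.50 rather than through 10369541 at 1.14, which lowered that median.

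**Figure D2:**
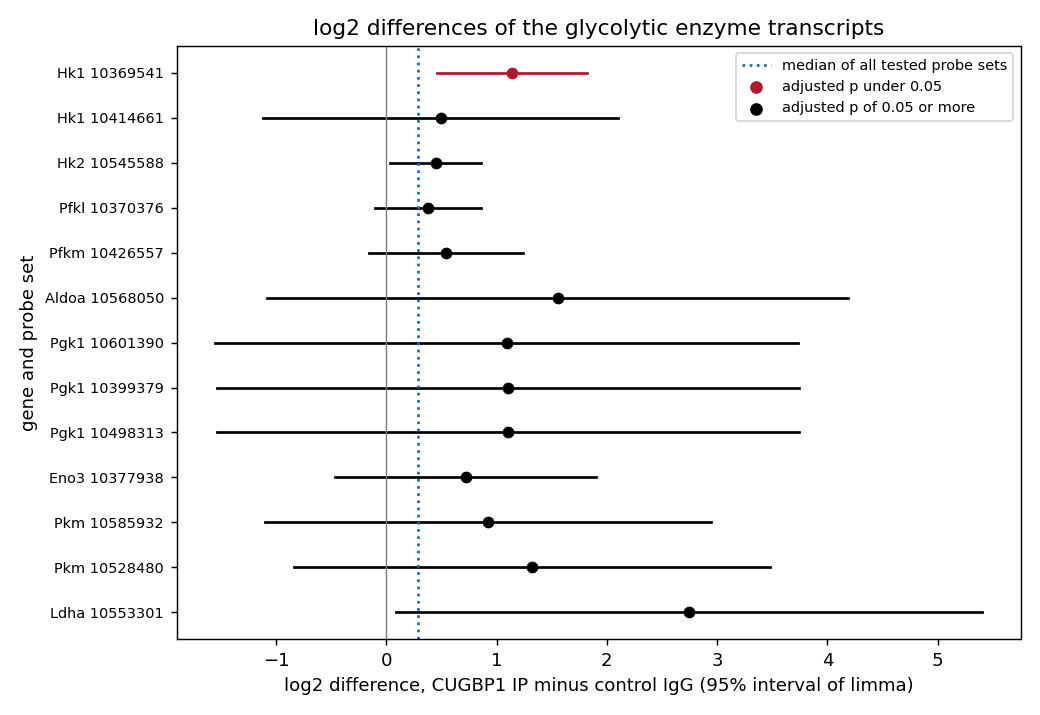
Log2 difference, CUGBP1 IP minus control IgG, of each probe set with limma's 95% interval; red marks the probe set called at an adjusted p under 0.05 and the dotted line the median of all tested probe sets. As deposited, all 13 differences lie above 0, from 0.38 to 2.75, but after quantile normalization only *Hk1* 10369541, *Hk2* and *Ldha* stay above 0, and with arrays scaled to their 95th percentiles only *Aldoa* and *Ldha*.

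The entry of glucose into the pathway is catalyzed by hexokinases, of which *Hk1* encodes the widely expressed form and *Hk2* the form prominent in insulin-responsive tissue such as muscle. *Hk1* was represented by probe sets 10369541 and 10414661, which behaved differently. Probe set 10369541 read 2.51 and 2.94 in CUGBP1 IP arrays, against 1.09 and 1.39 in control IgG. The groups do not overlap, and the first control array was within background. The ratio was 2.20, or 2.50 and 1.96 against control IgG replicates 1 and 2 alone, and limma called it higher with a log2 difference of 1.14 (SE 0.35, adjusted p = 0.0496). This call was close to the threshold. It was kept with an offset of 1 before log2 (limma adjusted p = 0.0302) and with arrays scaled to their medians (0.00176). It was lost with any 1 of the 4 arrays left out (limma adjusted p from 0.172 to 0.663), without the intensity trend (0.146), after subtraction of the receptor median (0.210) and after quantile normalization (0.0847). The log2 difference was 0.97 to 1.32 with an array left out, 1.14 without the trend, 1.15 after the subtraction and 0.58 after quantile normalization, and limma called 0 of all tested probe sets in the first 3 of these settings. It was -0.33 with arrays scaled to their 95th percentiles.

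Probe set 10414661 of *Hk1* read 57.09 and 134.06 in CUGBP1 IP arrays, against 30.25 and 127.31 in control IgG. The first CUGBP1 IP array lies between the 2 control arrays, so the groups overlap. Its ratio was 1.21, at the 49.0th percentile of all tested probe sets, but this single value hides opposite positions against the control arrays. The ratio was 3.16 (91.3rd percentile) with control IgG replicate 1 as the only control, whereas with control IgG replicate 2 it was 0.751 (0.057th percentile), the only ratio under 1 among the 13 probe sets. Its log2 difference was 0.50 (SE 0.82, limma adjusted p = 0.607), and it was -0.12 without CUGBP1 IP replicate 2 and -0.54 without control IgG replicate 1. Within each array, the intensity of 10369541 over that of 10414661 was 0.0440 and 0.0219 in CUGBP1 IP arrays, against 0.0360 and 0.0109 in control IgG, and these ratios overlap between the groups.

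The annotation behind the *Hk1* probe sets was uneven. Probe set 10414661 was assigned through 1 sequence record, whereas 10369541 was assigned through 8, of which 1 is that same record. A further 13 probe sets were paired with *Hk1* together with other genes and were left out by the rule. All 13 carry that record and all 13 are also paired with the gene of ribosomal protein L17. Their ratios lay between 1.27 and 1.74 (median 1.45), with 2.79 to 3.91 against control IgG replicate 1 alone (median 3.29) and 0.820 to 1.12 against control IgG replicate 2 alone (median 0.938). For scale, 49 cytosolic ribosomal protein genes had a median ratio of 1.49, with medians of 3.24 and 0.967 against control IgG replicates 1 and 2 alone. The ratio of 10414661 to control IgG replicate 1, 3.16, lies within the range of those 13 probe sets, and its ratio to control IgG replicate 2, 0.751, lies below it. Whether the probes of 10414661 detect *Hk1* was not tested. Without it, the median ratio over the remaining probe sets was 2.02, a comparison chosen after its values were seen.

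*Hk2* read 1.40 and 1.76 in CUGBP1 IP arrays, against 1.06 and 1.25 in control IgG. The groups do not overlap, but every value is close to the array floor and the first control array was within background. The ratio was 1.37 (1.49 and 1.26 against control IgG replicates 1 and 2 alone). The log2 difference was 0.45 (SE 0.21), with an unadjusted p of 0.0349 and a limma adjusted p of 0.155.

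Phosphofructokinase makes the committed step, with *Pfkl* encoding the liver-type and *Pfkm* the muscle-type subunit. Both probe sets were dim, and both kept the CUGBP1 IP arrays above the control arrays. *Pfkl* read 1.67 and 1.63 in CUGBP1 IP arrays, against 1.16 and 1.39 in control IgG, and had a ratio of 1.29 (1.42 and 1.19 against control IgG replicates 1 and 2 alone). *Pfkm* read 2.11 and 2.37 in CUGBP1 IP arrays, against 1.22 and 1.94 in control IgG, and had a ratio of 1.42 (1.84 and 1.15 against control IgG replicates 1 and 2 alone). Neither log2 difference passed the test, with 0.38 (95% interval -0.10 to 0.86, limma adjusted p = 0.239) for *Pfkl* and 0.54 (-0.16 to 1.24, limma adjusted p = 0.243) for *Pfkm*.

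*Aldoa* encodes the aldolase of muscle and many other tissues, which cleaves fructose 1,6-bisphosphate. It read 20.96 and 23.16 in CUGBP1 IP arrays, against 4.06 and 13.83 in control IgG. The CUGBP1 IP replicates were close to each other and above both controls, while the controls lay far apart. The ratio of 2.47 (94.3rd percentile) was 5.43 against control IgG replicate 1 alone (97.6th percentile) and 1.60 against control IgG replicate 2 alone (88.3rd percentile). The log2 difference of 1.56 (SE 1.34, 95% interval -1.08 to 4.19) did not pass the test (limma adjusted p = 0.347).

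*Pgk1* encodes phosphoglycerate kinase, the enzyme of the first ATP-yielding step, and had 3 probe sets. Probe sets 10399379 and 10498313 held identical values on all 4 arrays, 21.43 and 33.29 in CUGBP1 IP arrays, against 8.19 and 18.81 in control IgG. Probe set 10601390 read 20.70 and 33.04 in CUGBP1 IP arrays, against 8.05 and 18.70 in control IgG. The annotation gives all 3 the same sequence records, so they are not independent measurements of the transcript, and whether their probes also match copies of the gene elsewhere was not tested. The ratio was 2.03 for the identical pair and 2.01 for 10601390, with 3.34 against control IgG replicate 1 alone in each and 1.45 and 1.44 against control IgG replicate 2 alone. The CUGBP1 IP arrays were above the control arrays, with the lower CUGBP1 IP array only a little above the higher control. The log2 differences of 1.11 and 1.09 (SE 1.35 each) had limma adjusted p-values of 0.490 and 0.495.

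*Eno3*, which encodes the muscle form of enolase, read 2.84 and 4.81 in CUGBP1 IP arrays, against 1.59 and 3.17 in control IgG. The second control array was above the first CUGBP1 IP array, so the groups overlap. The ratio was 1.61 (2.41 and 1.21 against control IgG replicates 1 and 2 alone), and the log2 difference was 0.72 (SE 0.60, limma adjusted p = 0.334).

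*Pkm* encodes the muscle and proliferating-cell forms of pyruvate kinase, which are produced by alternative splicing. Its probe set 10585932 read 6.63 and 9.15 in CUGBP1 IP arrays, against 2.44 and 6.94 in control IgG, and its probe set 10528480 read 7.69 and 13.37 in CUGBP1 IP arrays, against 2.11 and 7.80 in control IgG. In both, the second control array was slightly above the first CUGBP1 IP array. The ratios were 1.68 (3.23 and 1.14 against control IgG replicates 1 and 2 alone) and 2.13 (4.99 and 1.35). The probe sets rest on 8 and 2 sequence records, of which 2 are shared, so the annotation does not assign them to separate splice forms. Neither log2 difference passed the test, with 0.92 (SE 1.03, limma adjusted p = 0.454) for 10585932 and 1.32 (SE 1.10, limma adjusted p = 0.332) for 10528480.

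*Ldha* encodes the lactate dehydrogenase subunit that predominates in glycolytic muscle. It read 37.20 and 40.71 in CUGBP1 IP arrays, against 3.28 and 10.25 in control IgG, a mean of 39.0 ± 2.48 against 6.77 ± 4.93 (SD, n = 2 each). The lower CUGBP1 IP array was 3.63 times the higher control array, and the widest pair differed 12.4-fold. The ratio to control IgG replicate 1 alone was 11.9 (99.6th percentile), and that to control IgG replicate 2 alone was 3.80 (98.7th percentile). The overall ratio of 5.76 ranked 178th of the 21044 tested probe sets. The fit gave a log2 difference of 2.75 (SE 1.36, 95% interval 0.09 to 5.40) with an unadjusted p of 0.0427, and the transcript did not pass after adjustment (limma adjusted p = 0.165). In contrast to *Hk1* 10369541, its difference stayed positive under each alternative tried, from 1.19 after quantile normalization to 3.57 without control IgG replicate 2, and with arrays scaled to their 95th percentiles it was 1.27 (limma adjusted p = 0.00011). With the receptor median first subtracted from each array, its ratio of 6.61 stood at the 82.5th percentile and so outside the top 5%. In that setting *Hk1* 10369541 had the higher ratio, 7.84 (85.4th percentile).

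Since a factor common to a whole array cancels in a ratio within that array, *Ldha* was also set against the other glycolytic probe sets with a mean intensity over 5. These were 7 probe sets of 4 genes. *Ldha* was taken as the numerator after it was seen to have the highest ratio as deposited. These values thus describe its difference again on another scale and are not further evidence of it. *Ldha* over *Aldoa* was 1.77 and 1.76 in CUGBP1 IP arrays, against 0.808 and 0.741 in control IgG, a 2.28-fold difference of geometric means. *Ldha* over *Pgk1* 10601390 was 1.80 and 1.23 in CUGBP1 IP arrays, against 0.407 and 0.548 in control IgG (3.15-fold). For both genes the control replicates were nearer to each other in these ratios than in the intensities themselves, and the groups do not overlap.

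*Ldha* over *Pkm* 10585932 was 5.61 and 4.45 in CUGBP1 IP arrays, against 1.34 and 1.48 in control IgG (3.55-fold), and over *Pkm* 10528480 it was 4.84 and 3.04 in CUGBP1 IP arrays, against 1.55 and 1.31 in control IgG (2.69-fold). Over *Hk1* 10414661 it was 0.652 and 0.304 in CUGBP1 IP arrays, against 0.108 and 0.0805 in control IgG (4.76-fold). The groups do not overlap for 7 of the 7 denominators, which share their numerator and are thus not separate observations. With 2 arrays against 2, an exact permutation test (two-sided) cannot give a p below 0.333. The ratios describe an unequal difference of *Ldha* and the other transcripts between these arrays and do not give the absolute change of either.

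**Figure D3:**
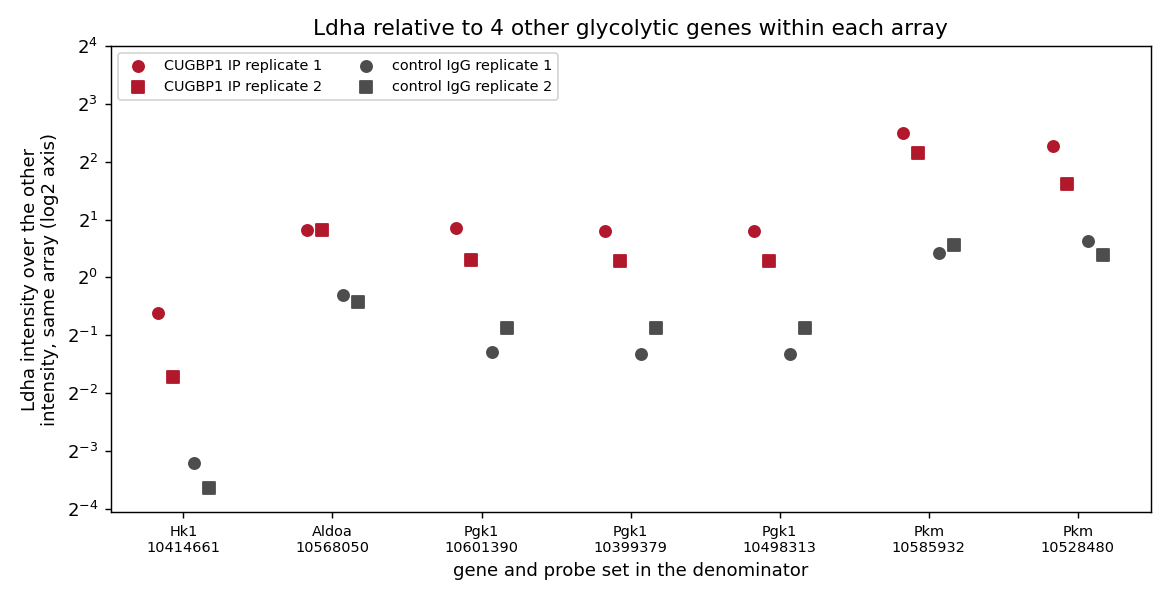
Intensity of *Ldha* divided by the intensity of another glycolytic probe set on the same array (log2 axis), for 7 denominators, with CUGBP1 IP replicates in red left of control IgG replicates in gray. For each denominator both CUGBP1 IP points lie above both control IgG points, from 1.77 and 1.76 against 0.808 and 0.741 over *Aldoa* to 0.652 and 0.304 against 0.108 and 0.0805 over *Hk1* 10414661.

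As deposited, the control arrays gave different ratios for these mRNAs. Against control IgG replicate 1 alone, 13 of the 13 ratios were above 1 (94.6% of all tested probe sets), with a median of 3.23. Against control IgG replicate 2 alone, 12 of the 13 were above 1 (86.6% of all tested probe sets), with a median of 1.35. The medians over all tested probe sets were 1.31 and 1.13, and over those above background on all arrays 2.12 and 1.33. The ratio to control IgG replicate 1 was more than 1.5 times that to control IgG replicate 2 for 10 of the 13 glycolytic probe sets, against 18.6% of all tested probe sets. The exceptions were *Hk1* 10369541, *Hk2* and *Pfkl*. Both ratios share the CUGBP1 IP mean, so this gap compares the control arrays alone, and dim probe sets near the array floor have little room for it. These figures hold for the values as deposited. After quantile normalization 5 and 3 of the 13 ratios were above 1 against control IgG replicates 1 and 2 alone. Their medians were 0.901 and 0.897, against 0.992 and 0.992 over all tested probe sets. Such a gap between the controls was then seen for 1 of the 13, against 2.21% of all tested probe sets. With arrays scaled to their 95th percentiles the counts were 3 and 2. The medians were then 0.767 and 0.704, against 0.316 and 0.611 over all tested probe sets. Such a gap was seen for 3 of the 13, against 1.44% of all tested probe sets. With arrays scaled to their medians it was seen for 9 of the 13, against 12.9% of all tested probe sets. After subtraction of the receptor median it was seen for 13 of the 13, against 76.7% of all tested probe sets. The medians after this subtraction were 4.89 and 1.48, against 7.28 and 1.98 over all tested probe sets.

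**Figure D4:**
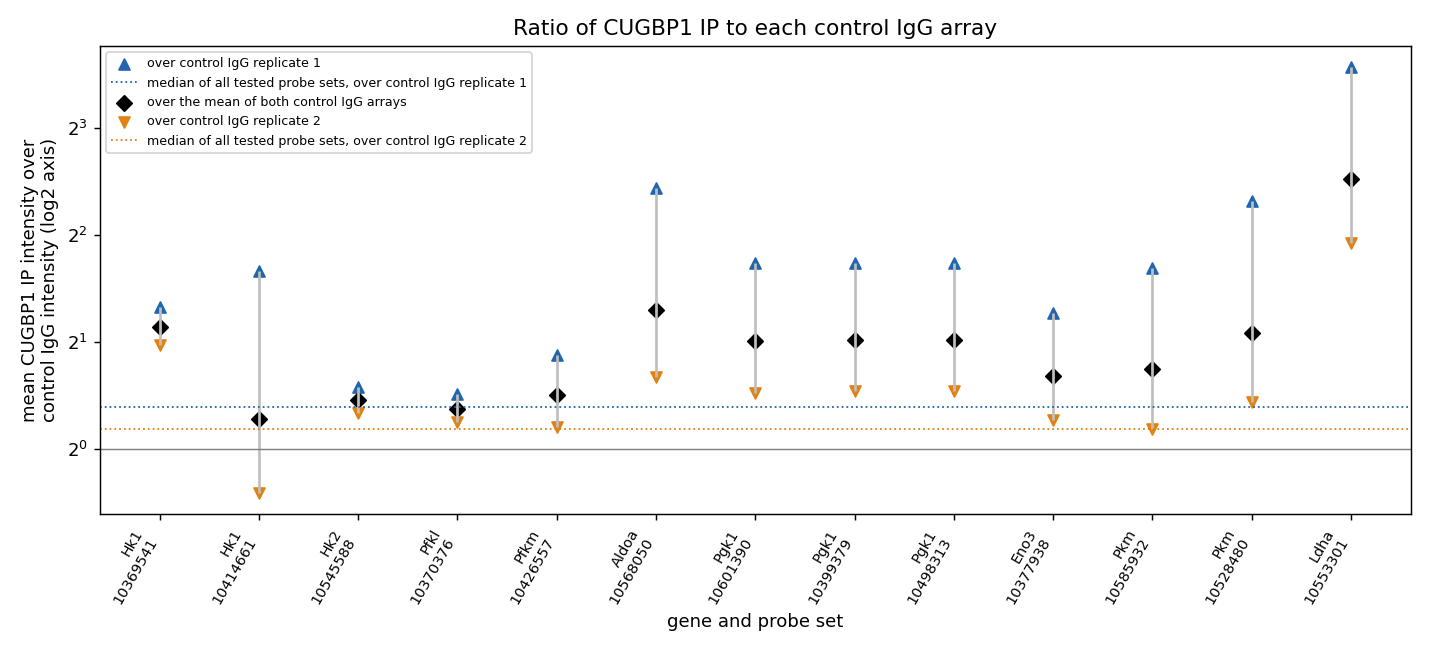
Mean CUGBP1 IP intensity over control IgG replicate 1 alone (blue), over the mean of both controls (black) and over control IgG replicate 2 alone (orange) for each probe set on a log2 axis, with dotted lines at the medians of all tested probe sets. The blue and orange points of *Ldha* stand at 11.9 and 3.80, and those of *Hk1* 10414661 at 3.16 and 0.751, on either side of 1.

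All 13 glycolytic probe sets were brighter on control IgG replicate 2 than on replicate 1, by 1.18 to 4.21 times (median 2.30), as were 86.3% of all tested probe sets. In the CUGBP1 IP, 12 of the 13 were brighter on replicate 2, by a median of 1.38 times over the 13, as were 79.0% of all tested probe sets. Among the 568 tested probe sets with a mean intensity over 10, a group defined after the values were seen, the median ratio was 1.92, with 4.50 and 1.28 against control IgG replicates 1 and 2 alone, and 35.4% were in the top 5% of ratios. Control IgG replicate 2 read a median of 3.05 times replicate 1 in this group, against 2.30 times for the 13 glycolytic probe sets. Within this group *Ldha* stood at the 82.7th percentile of ratios, *Aldoa* at the 62.3rd, the *Pgk1* probe sets at the 53.0th to 53.6th, and *Hk1* 10414661 at the 2.46th. The part that brightness had in the ratios was not tested.

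For scale, *Celf1*, the transcript of CUGBP1 itself, read 7.03 and 7.90 in CUGBP1 IP arrays, against 1.56 and 2.20 in control IgG, a ratio of 3.97 (limma adjusted p = 0.103). The transcripts *Rnd3*, an atypical GTPase, and *Smad7*, an inhibitor of TGF-beta signaling, which the study assayed singly and found enriched, had ratios of 13.6 (limma adjusted p = 0.0492) and 6.20 (limma adjusted p = 0.0373). The ratio of *Ldha* was thus between those of *Celf1* and *Smad7*, and each of the other 12 glycolytic probe sets was below all of them. The negative controls of the study's RT-PCR, *Myc*, *Plk2* and *Gapdh*, were not set beside these values. *Gapdh*, which encodes a glycolytic enzyme, was by that assay in neither precipitate, and it was not among the glycolytic genes measured here.

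The rest of carbohydrate metabolism was examined through lists of 91 genes, of which 82 were measured, with 1 probe set per gene. limma called 0 of the 82 higher and 0 lower, with 22 at an unadjusted p under 0.05 (26.8%, against 28.6% of all tested probe sets), and 4 were in the top 5% of ratios. The median ratio over the 82 genes was 1.43 (1.69 and 1.23 against control IgG replicates 1 and 2 alone), and 45 of the 82 were above background on all arrays. For 63 of the 82, both CUGBP1 IP arrays read above both controls (76.8%, against 66.3% of all tested probe sets).

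Of the other glycolytic enzymes and isoenzymes, 13 of 17 genes were measured, with a median ratio of 1.25, and only 3 were above background on all arrays. *Pgam1*, the phosphoglycerate mutase that acts between *Pgk1* and enolase, was the sole member of this list in the top 5%. It read 16.01 and 28.29 in CUGBP1 IP arrays, against 2.30 and 6.17 in control IgG. Both CUGBP1 IP arrays were well above both controls, as for *Ldha*. The ratio was 5.23 (9.63 and 3.59 against control IgG replicates 1 and 2 alone), and the log2 difference was 2.50 (SE 1.25, limma adjusted p = 0.168). Its probe set 10561302 held values identical to those of 10463168, and probe set 10497321 had a ratio of 4.96. *Tpi1*, triosephosphate isomerase, had a ratio of 2.01 (limma adjusted p = 0.383).

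Among the 11 of 12 measured regulators of fructose 2,6-bisphosphate and gluconeogenic enzymes (median ratio 1.18), the highest ratio belonged to *Pfkfb2*, which makes this activator of phosphofructokinase, at 1.98 (limma adjusted p = 0.0923). Among the 10 glucose and lactate transporter genes (median 1.17), *Bsg*, the chaperone of monocarboxylate transporters, had the highest at 2.09 (limma adjusted p = 0.336). Neither list had a member in the top 5% of ratios.

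Further along, pyruvate dehydrogenase genes (12 of 13 measured, median 1.64) included *Pdhb* at 2.96 (limma adjusted p = 0.0954) and *Pdha1* at 2.52 (limma adjusted p = 0.306), which encode the subunits of the decarboxylating component. Genes of the tricarboxylic acid cycle (15 of 16 measured, median 1.59) included *Sdhc*, a membrane anchor of succinate dehydrogenase, at 2.73 (limma adjusted p = 0.232) and *Mdh2*, mitochondrial malate dehydrogenase, at 2.25 (limma adjusted p = 0.342). Pentose phosphate genes (7 of 8 measured, median 1.55) were led by *Taldo1*, transaldolase, at 2.24 (limma adjusted p = 0.103), with *Pgls*, 6-phosphogluconolactonase, at 1.71 (limma adjusted p = 0.316). Of glycogen metabolism (14 of 15 measured, median 1.45), *Gsk3b*, a kinase that inhibits glycogen synthase, had 2.73 (limma adjusted p = 0.157). Of these lists, *Pdhb*, *Sdhc* and *Gsk3b* were in the top 5% of ratios.

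**Figure D5:**
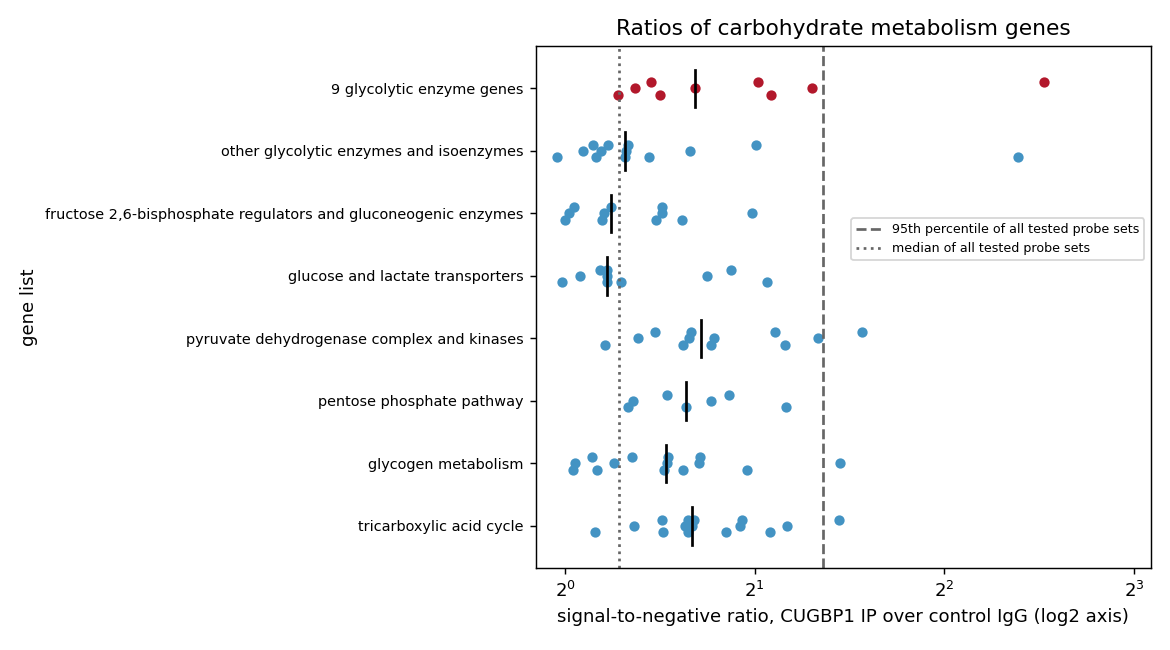
Signal-to-negative ratio (log2 axis) of each measured gene, 1 probe set per gene, in the 9 glycolytic enzyme genes (red) and in the 7 lists of related metabolism (blue), with black bars at the list medians. *Ldha* at 5.76 and *Pgam1* at 5.23 stand apart at the right, and the dashed line marks the 95th percentile of all tested probe sets at 2.57. *Hk1* is shown by its brighter probe set, 10414661, at 1.21.

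Finally, the genes whose 4 log2 values lay nearest to the median profile of the 9 glycolytic genes, with 1 probe set each (7.69 and 13.37 in CUGBP1 IP arrays, against 2.11 and 7.80 in control IgG) were identified by Euclidean distance over the 4 arrays. On each of the 4 arrays this median is the value of *Pkm* 10528480, so the profile is that of 1 probe set and not of the genes as a group. *Hk1* entered the median through 10414661. The nearest were *Cuta* (distance 0.193), *1810058I24Rik* (0.274), *Calm3* (0.274), *Agpat1* (0.280) and *Nadk* (0.287). *Calm3* encodes calmodulin and *Nadk* NAD kinase. The ratios of these genes ran from 2.00 for *Calm3* to 2.26 for *Agpat1*. That they lie close together follows from choosing the genes by the same 4 values. The likeness rests on 4 arrays and counts the level as well as the difference between groups.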

How the data were processed

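RNA of 2 CUGBP1 IP and 2 control IgG samples was hybridized to 1 array each. The deposited values are linear intensities that the authors divided by the 5th percentile over all probe sets of the same array, whereas the program that summarized probes, its version and any background correction were not given in the sources used here. Precision is limited by the number of arrays. Of 25175 probe sets, 21044 were paired with exactly 1 gene by the platform annotation and were tested, 1492 with several and 2639 with none. A RefSeq table of GRCm38.p6, used for names only, gave current symbols for 20959 probe sets by gene identifier. There were 0 unused columns of sample values.

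Samples were grouped by their titles. No source used here states that replicates came from separate cultures, so p-values measure only the spread between these samples, which may be technical. Log2 intensities were compared with limma 3.58.1 in R 4.3.3 (lmFit, eBayes with an intensity trend, two-sided, Benjamini-Hochberg over the 21044 probe sets, threshold 0.05). Because of the trend, the SE reflects the spread of probe sets of like intensity more than that of the single probe set. The script was tested on simulated data. The signal-to-negative ratio follows the study's definition and has no test.

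Every probe set of the glycolytic genes was named. Of the other lists, called genes and the genes with the highest ratio and the highest mean intensity were named, with 1 probe set per gene (the highest mean over 4 arrays), and the 5 genes nearest in profile. *Tpi1* was named after its values were seen. The genes and lists were chosen with earlier results of these data known. Alternatives covered an offset of 1 before log2, scaling, background subtraction, a filter on dim probe sets, the variance model, a replicate block and leaving out each array.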

Additional observations from a re-analysis of the deposited data

How the results depend on the processing

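Over all tested probe sets, limma called 763 higher with an offset of 1 and 1362 with arrays scaled to their medians. It called 254 higher and 65 lower with arrays scaled to their 95th percentiles, and 426 higher and 17 lower after quantile normalization. Among the 7727 that exceeded background on every array it called 270 higher and 0 lower. limma called 0 higher and 0 lower without the intensity trend (4757 higher at an unadjusted p under 0.05), after subtraction of the receptor median (4604 at that level) and with any 1 array left out (0 to 0 calls, 955 to 6022 higher at an unadjusted p under 0.05). The lone array that then remains in a group is assumed to vary like the other group. Of the glycolytic probe sets, 0 were called higher under quantile normalization, without the trend, after the subtraction, with 1 array left out (0 to 0), or among those above background on all arrays, where *Hk1* 10369541 was not tested. With arrays scaled to their 95th percentiles the 1 probe set called was *Ldha* in place of *Hk1* 10369541.

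Scaling also set the sign of most values. The median log2 difference of the glycolytic probe sets was -0.23 after quantile normalization and -0.38 with 95th percentile scaling, and 0.38 to 1.67 with 1 array left out. Their median ratio was 0.833 after quantile normalization (all tested probe sets 0.987) and 0.766 with 95th percentile scaling (all tested probe sets 0.418). It was 1.35 to 3.23 with 1 array left out. After subtraction of the receptor median it was 2.16, below the 2.94 of all tested probe sets. *Aldoa* then stood at the 41.3rd percentile of ratios and the *Pgk1* probe sets at the 25.7th to 26.3rd. The median ratio to control IgG replicate 1 alone was 0.901 after quantile normalization and 0.767 with 95th percentile scaling, and that to control IgG replicate 2 alone was 0.897 after quantile normalization and 0.704 with 95th percentile scaling. After quantile normalization the log2 difference was -0.37 for *Hk1* 10414661, -0.14 for *Pfkl*, -0.22 for *Pfkm*, -0.046 for *Aldoa*, -0.44 for *Pgk1* 10601390, -0.41 for the other *Pgk1* probe sets, -0.52 for *Eno3*, and -0.68 and -0.23 for *Pkm* 10585932 and 10528480. With 95th percentile scaling it was -0.33 for *Hk1* 10369541, -0.98 for *Hk1* 10414661, -1.03 for *Hk2*, -1.10 for *Pfkl*, -0.94 for *Pfkm*, -0.38 for *Pgk1* 10601390, -0.37 for the other *Pgk1* probe sets, -0.76 for *Eno3*, and -0.56 and -0.15 for *Pkm* 10585932 and 10528480. *Hk1* 10414661 ranged over -0.54 to 1.53 with 1 array left out, with -0.12 without CUGBP1 IP replicate 2 and -0.54 without control IgG replicate 1. *Ldha* kept its sign under all alternatives run. The cause of these changes was not tested.

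With the replicate number as a block, limma called 11809 probe sets higher, 5 of the 13 glycolytic ones among them (*Hk1* 10369541, *Hk2*, *Pfkl*, *Pfkm* and *Ldha*, adjusted p from 0.00450 to 0.0320). The deviations of replicate 2 from replicate 1 correlated between the groups across probe sets (Pearson's r = 0.639, probe sets not being independent). No source says that a number marks a shared lysate, so whether same-numbered samples share more than a number cannot be told.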
